A study of Mus musculus with 30 samples.

Results

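The genes described here encode the mouse SR proteins and the heterogeneous nuclear ribonucleoproteins (hnRNPs), the 2 large families of RNA-binding proteins that choose splice sites. Members were all genes in the count tables whose mouse symbol is Srsf followed by a number or begins with Hnrnp, with 2 pseudogene names left out. This gave 31 genes of 48795, of which 11 are SR genes (Srsf1 to Srsf7 and Srsf9 to Srsf12) and 20 are hnRNP genes. The study measured RNA from primary endothelial cells of the brain of wild-type, untreated mice at 2, 6, 12, 18 and 24 months of age, with 3 male and 3 female libraries at each age and 30 libraries in all. Full-length cDNA made from low RNA input was sequenced, 24 libraries as paired and 6 as single 50-base reads, and the labels do not say which libraries those 6 are. The labels record neither the isolation of the cells nor whether mice were pooled for a library, so the p-values measure the spread between samples that the design text calls biological replicates. The question put by the design was which genes change with age once sex is taken into account.

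SR proteins carry RNA recognition motifs and a tail rich in alternating arginine and serine. They bind exonic enhancers, recruit the U1 and U2 particles to the neighbouring splice sites, and shuttle between nuclear speckles and transcripts as their tails are phosphorylated and dephosphorylated. The hnRNPs coat nascent transcripts, and many of them act on exons from silencers in exons and introns, often against SR proteins. Several hnRNPs carry glycine-rich tails with arginine-glycine-glycine repeats, and both families also act in mRNA export, stability and translation. Many members regulate their own mRNA by splicing in exons with premature stop codons, so that the transcript is degraded.

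Libraries held 24140980 to 50464366 counts in genes, so that 3 counts correspond to 0.0594 to 0.124 CPM, the counts of a gene scaled to library size. Summed CPM of 10 brain endothelial markers, among them Cldn5, Pecam1 and Cdh5, ranged from 20014 to 26539 over the libraries, so the defining markers of the labelled cell type were present in each. Markers of other cells were lower: 378 to 1214 CPM over 8 pericyte genes, 208 to 1297 over 8 astrocyte genes, 177 to 1328 over 8 microglial genes, 133 to 1956 over 7 oligodendrocyte genes, 159 to 6981 over 6 choroid plexus genes and 2.56 to 10.7 over 8 neuronal genes. Each of the neuronal genes Syt1, Rbfox3, Slc17a7, Gad1 and Gad2 was at 0 in at least 1 library. Astrocyte markers summed to 732 ± 288 CPM at 2 months (SD, n = 6) and 426 ± 149 at 18 months, and choroid plexus markers to 2873 ± 1404 and 897 ± 504. The share of reads that fell in no annotated gene model moved with age: 5.06 ± 0.971% at 2 months (SD, n = 6), 5.69 ± 1.26% at 6, 6.03 ± 0.676% at 12, 10.3 ± 2.13% at 18 and 7.19 ± 1.76% at 24 months, and its range at 18 months (7.99 to 13.1%) lay above that at 2 months (3.82 to 6.61%). Slopes and contrasts with 2 months of the members that passed are also given with this share as a further covariate. The summed level of 16 immediate early and dissociation-response genes was 1673 to 2668 CPM at 2 months and 1885 to 4395 CPM at 18 months, and that of 5 erythroid genes 436 to 1039 and 219 to 1089 CPM. In bulk libraries, fewer cells of a type and less RNA per cell cannot be told apart.

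The family names were checked against the coding sequences (GENCODE M21, GRCm38, 1 coding transcript a gene). Neighbouring arginine and serine codons occurred 4.05 to 23.5 times per 100 codons in the SR genes (median 16.0) and 0.274 to 2.55 times in the hnRNP genes (median 0.994), so the families did not overlap. Srsf9 was the lowest SR gene and Srsf2 the highest. Arginine-glycine-glycine codon triples numbered 0 to 2 in the SR genes and 0 to 8 in the hnRNP genes, with 8 in Hnrnpr and in Hnrnpu and none in 6 hnRNP genes, Hnrnpc, Hnrnpf, Hnrnph1, Hnrnph2, Hnrnpl and Hnrnpll. The 90-base stretches below show the densest part of 2 SR genes that moved in opposite directions with age, of the SR gene with the shortest coding sequence, and of 2 hnRNP genes, 5′ to 3′ on the coding strand. Capitals mark codons of an arginine-serine neighbour pair in the SR genes and arginine-glycine-glycine triples in the hnRNP genes.
Srsf5 (Srsf5-204, coding bases 592 to 681): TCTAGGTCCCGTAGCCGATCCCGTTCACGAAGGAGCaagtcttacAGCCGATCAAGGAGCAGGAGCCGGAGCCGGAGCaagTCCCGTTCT
Srsf9 (Srsf9-201, coding bases 514 to 603): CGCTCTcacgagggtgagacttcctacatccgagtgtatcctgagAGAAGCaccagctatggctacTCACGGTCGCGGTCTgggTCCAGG
Srsf3 (Srsf3-202, coding bases 388 to 477): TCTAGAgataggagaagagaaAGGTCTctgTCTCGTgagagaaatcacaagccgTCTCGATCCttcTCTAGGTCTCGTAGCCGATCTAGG
Hnrnpu (Hnrnpu-201, coding bases 2026 to 2115): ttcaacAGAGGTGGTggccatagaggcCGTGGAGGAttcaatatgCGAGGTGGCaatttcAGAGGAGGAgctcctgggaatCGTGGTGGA
Hnrnpa2b1 (Hnrnpa2b1-203, coding bases 601 to 690): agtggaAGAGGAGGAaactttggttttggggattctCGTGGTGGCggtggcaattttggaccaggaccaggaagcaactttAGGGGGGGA
The Srsf5 stretch holds 22 such neighbour pairs within 30 codons, the Srsf3 stretch 12 and the Srsf9 stretch 7, whereas the Hnrnpu stretch holds 5 glycine triples and the Hnrnpa2b1 stretch 3.

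In the same annotation, a transcript destined for nonsense-mediated decay was recorded for 9 of 11 SR genes (81.8%) and 10 of 20 hnRNP genes (50%), against 20.9% of 21695 protein-coding genes. A retained-intron transcript was recorded for 8 SR genes (72.7%) and 14 hnRNP genes (70%), against 41.9% of protein-coding genes. Srsf10 and Srsf12 were the SR genes with no decay transcript on record. The gene counts used here add all transcripts of a gene and do not separate coding from decayed forms.

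Promoters of 29 members were matched by symbol in RefSeq (GRCm38.p6), each as the 300 bases around the start that RefSeq gives the gene, which for some members (Hnrnpl, Hnrnpk and Hnrnpdl among them) is not the outermost start of the GENCODE gene whose positions are given below. Searched on both strands, the GC box GGGCGG occurred in 10 of 11 SR and 13 of 18 hnRNP promoters, against 35.7% of 32851 mouse promoters of that length. The CCAAT box CCAAT occurred in 4 SR and 12 hnRNP promoters (37.4% of all), and the ETS motif CCGGAAG in 4 SR and 2 hnRNP promoters (8.86% of all). The YY1 motif ATGGCGG was found in 2 SR and 4 hnRNP promoters (4.05%), the E-box CACGTG in 0 and 4 (7.15%), the TATA motif TATAAA in 2 and 2 (13.6%), the NRF1 motif GCGCATGCG in 1 and 0 (1.75%), and the CRE motif TGACGTCA in 0 and 0 (1.79%). A match describes letters only. The promoters printed belong to members whose RNA rose (Srsf5, Hnrnpdl) or fell (Srsf9, Hnrnpab, Hnrnpc) with age, with every searched motif in capitals on the gene's strand, where overlapping motifs run together.
Srsf5 (chr12:80945249-80945548, plus strand): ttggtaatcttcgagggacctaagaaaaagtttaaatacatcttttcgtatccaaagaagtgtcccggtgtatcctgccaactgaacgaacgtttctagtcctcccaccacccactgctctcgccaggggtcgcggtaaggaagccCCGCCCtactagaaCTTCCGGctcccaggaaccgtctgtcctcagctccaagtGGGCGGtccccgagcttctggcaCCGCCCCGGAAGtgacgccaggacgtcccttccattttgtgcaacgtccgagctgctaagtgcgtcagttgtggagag
Hnrnpdl (chr5:100039173-100039472, minus strand): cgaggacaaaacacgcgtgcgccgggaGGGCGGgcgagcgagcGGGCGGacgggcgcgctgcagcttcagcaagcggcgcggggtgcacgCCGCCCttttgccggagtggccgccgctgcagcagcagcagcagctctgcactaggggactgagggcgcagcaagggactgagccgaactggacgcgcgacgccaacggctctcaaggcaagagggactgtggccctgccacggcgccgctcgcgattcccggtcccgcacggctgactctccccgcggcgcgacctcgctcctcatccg
Srsf9 (chr5:115326927-115327226, plus strand): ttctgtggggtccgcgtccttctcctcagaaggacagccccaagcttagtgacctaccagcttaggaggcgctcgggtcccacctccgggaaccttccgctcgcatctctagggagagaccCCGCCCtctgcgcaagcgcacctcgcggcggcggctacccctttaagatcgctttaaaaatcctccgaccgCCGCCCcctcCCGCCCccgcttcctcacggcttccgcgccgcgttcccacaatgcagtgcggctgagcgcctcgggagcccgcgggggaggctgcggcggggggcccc
Hnrnpab (chr11:51606832-51607131, minus strand): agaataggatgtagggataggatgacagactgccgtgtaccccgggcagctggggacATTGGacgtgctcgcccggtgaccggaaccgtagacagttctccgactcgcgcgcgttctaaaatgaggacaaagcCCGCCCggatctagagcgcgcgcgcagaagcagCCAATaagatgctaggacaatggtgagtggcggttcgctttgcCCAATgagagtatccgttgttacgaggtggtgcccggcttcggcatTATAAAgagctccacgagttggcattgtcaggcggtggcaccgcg
Hnrnpc (chr14:52103972-52104271, minus strand): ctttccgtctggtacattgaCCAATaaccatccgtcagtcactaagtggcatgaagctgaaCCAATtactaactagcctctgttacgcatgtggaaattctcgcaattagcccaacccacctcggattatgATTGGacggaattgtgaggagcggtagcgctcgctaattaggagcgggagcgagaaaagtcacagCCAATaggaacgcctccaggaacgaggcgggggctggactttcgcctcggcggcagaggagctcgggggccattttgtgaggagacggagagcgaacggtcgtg
Srsf5, Hnrnpdl and Srsf9 each carry 3 GC boxes and no CCAAT box, and the first of these also carries ETS motifs. Hnrnpab carries 3 CCAAT boxes and a TATA motif, and Hnrnpc carries 4 CCAAT boxes and no GC box. Genes that rose and genes that fell thus both include promoters with GC boxes.

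All 31 members passed the filter on low counts, which kept 16844 genes. Per kb of exon, Srsf9 (SRp30c) was the most abundant member at 118 ± 14.4 CPM per kb (SD over 30 libraries) and Hnrnpa2b1, which binds and sorts many mRNAs, came next at 106 ± 11.8. These neighbours lay within their spread, as did Srsf5 (70.3 ± 21.2), Hnrnpk (68.2 ± 9.25), which binds C-rich RNA through KH domains, and Srsf7 (66.2 ± 11.8). Hnrnpab (55.4 ± 9.74), Hnrnpu (45.7 ± 7.07), Hnrnpc (39.5 ± 4.85), Srsf2 (37.5 ± 5.41) and Hnrnpm (35.9 ± 5.66) followed. The median was 20.1 CPM per kb over SR genes and 15.7 over hnRNP genes. Length here is that of the merged exons of all annotated transcripts of a gene, so the order depends on the annotation. It was 1653 bases for Srsf9 (mean 194 CPM) and 6584 for Hnrnpa2b1 (mean 698 CPM). In CPM, 28 of 31 members had a mean of at least 10 and 15 of at least 100.

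**Figure D1:**
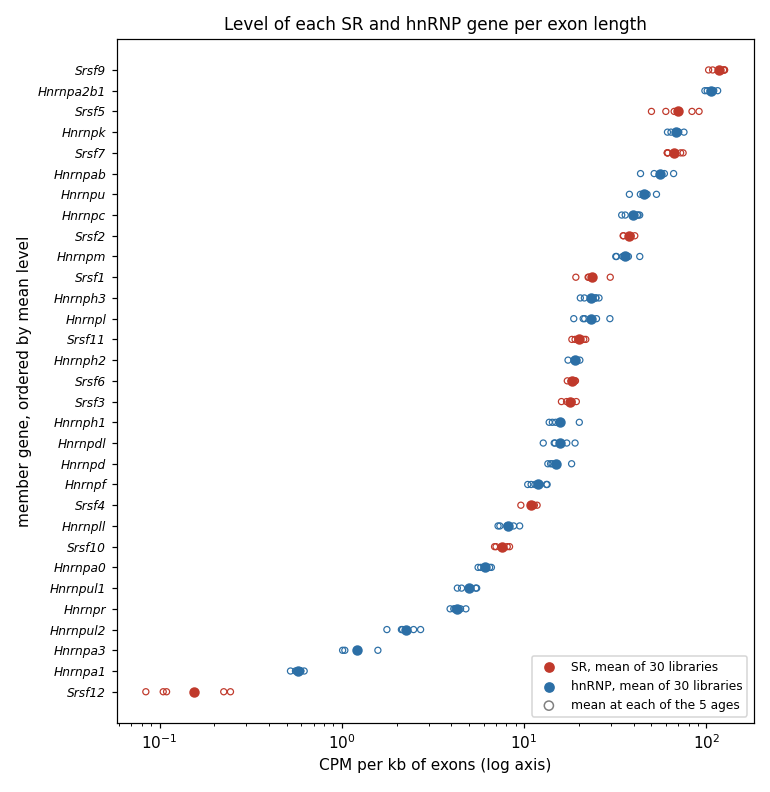
Mean level of each member in CPM per kb of exons (log axis), with filled points for the mean of 30 libraries, open points for the means at the 5 ages, red for SR and blue for hnRNP genes. The families are interleaved from Srsf9 at 118 down to Srsf12 at 0.154, and Srsf5 spreads more widely over ages than its neighbours.

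The lowest levels need care. Srsf12 ranged from 0 to 3.18 CPM with a median of 0.178 CPM and was at 0 in several libraries. Hnrnpa1, a founding hnRNP that is abundant in most cells, was listed at 1.82 ± 0.359 CPM (SD, n = 30) and Hnrnpa3 at 6.56 ± 1.53. Of the 50-base windows in their transcripts, 28.2% of Hnrnpa1 and 27.1% of Hnrnpa3 also occur in other genes, including 19 and 41 pseudogenes, and the count tables set reads that map to several places apart (8.64 to 13.3% of reads). Shared windows were also frequent for Hnrnpf (61.9%, 7 pseudogenes and 2 overlapping genes), Srsf4 (39.5%, overlapping Gm12992), Hnrnpab (23.8%, overlapping Phykpl), Srsf2 (20.7%, overlapping Mettl23 and Mfsd11), Hnrnpk (17.8%), Hnrnph2 (15.9%) and Hnrnpm (13.5%, overlapping March2). The kit marks no strand, so reads that overlap several genes cannot be assigned to any of them. Such reads are set apart as ambiguous (3.61 to 4.21% of reads) and are missing from the counts of these members, whose values are uncertain to that extent.

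Fitted on age in months with sex as a covariate, the SR genes split evenly: Srsf5 rose, Srsf9 fell and 9 of 11 did not pass an adjusted p of 0.05. Among hnRNP genes, 2 of 20 rose (Hnrnpdl and Hnrnpl), 4 fell (Hnrnpab, Hnrnpm, Hnrnpc and Hnrnpf) and 14 did not pass. Over all 16844 genes tested, 5.72% rose and 5.22% fell. The median change over 22 months was -0.016 (log2) for SR genes and -0.0048 for hnRNP genes, against 0.029 for all genes.

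Srsf5 (SRp40; chr12:80945504-80950507, plus strand, GRCm38) showed the largest change of any well-counted member. Its libraries spanned 176 to 229 CPM at 2 months (median 200.2), 167 to 379.6 CPM at 6 months (median 227), 206 to 274 CPM at 12 months (median 237), 241 to 455 CPM at 18 months (median 381) and 234 to 436 CPM at 24 months (median 327). Every library at 18 and 24 months lay above all 6 libraries of 2 months, whereas 6 and 12 months overlapped them. Of all genes tested, 4.69% had an 18-month range wholly above that of 2 months and 3.74% a 24-month range. The fitted change over 22 months was 0.74 ± 0.16 (SE; edgeR adjusted p = 0.00329) on the log2 scale, and the means rose from 199.5 ± 18.7 CPM to 333 ± 65.0 CPM (SD, n = 6). The share of reads in no gene model varied along with Srsf5 within some ages. At 6 months the libraries at 379 and 379.6 CPM had shares of 7.89% and 6.39%, the highest of that age, and at 24 months the lowest library (234 CPM) had 4.62%, the lowest of that age. At 18 months the lowest library (241 CPM) had 7.99%, the lowest of that age, but the highest library (455 CPM) had 9.38%, near the middle. Once this share was a covariate, the change was 0.33 and no longer passed. It was 0.61 without the 18-month libraries, where it passed, and 0.54 without the 2-month libraries, where it did not.

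Srsf9 (chr5:115327177-115333080, plus strand) fell by 0.28 ± 0.081 (log2, SE; edgeR adjusted p = 0.0252). It spanned 180.2 to 227 CPM at 2 months (median 206), 184 to 237 CPM at 6 months (median 208), 182 to 239 CPM at 12 months (median 204), 153 to 186 CPM at 18 months (median 171) and 159 to 209 CPM at 24 months (median 177). The drop lay between 12 and 18 months, and the ranges at 18 and 24 months still overlapped that at 2 months. All 6 libraries of 18 months and 5 of 6 of 24 months were below the 2-month mean. The call ended without female 1 of 2 months or without female 1 of 24 months, with adjusted p from 0.0112 to 0.0539 over the 30 fits that each left out 1 library. Without the 18-month libraries the change was -0.22 and did not pass, and with the share of reads in no gene model it was -0.11 and did not pass.

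The other SR genes changed less along the line. Srsf1 (SF2/ASF), the prototype of the family, had a fitted change of 0.28 ± 0.15, Srsf7 0.099 ± 0.12, Srsf3 0.062 ± 0.088 and Srsf2 0.061 ± 0.10, while Srsf11 had -0.016 ± 0.094, Srsf10 -0.076 ± 0.11, Srsf4 -0.094 ± 0.085 and Srsf6 -0.11 ± 0.072 (log2 over 22 months, SE). None of these passed. Srsf6 was the steadiest member, with a coefficient of variation of 9.04% over the 30 libraries, against 30.1% for Srsf5.

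**Figure D2:**
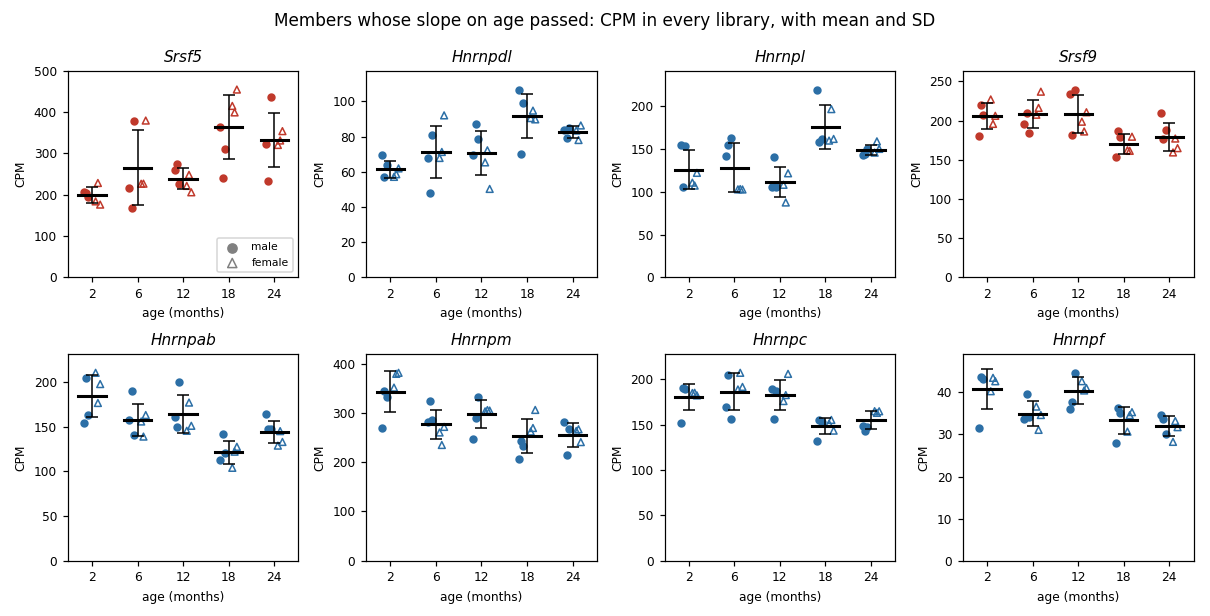
CPM in each library (circles male, triangles female) against age for the 8 members whose slope on age passed, with mean and SD as bars. Srsf5, Hnrnpdl and Hnrnpl are highest at 18 months, and Hnrnpab, Hnrnpc and Srsf9 are lowest there.

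Hnrnpdl, a relative of the AU-rich-element binder Hnrnpd, rose by 0.48 ± 0.12 (SE; edgeR adjusted p = 0.00800) (log2 over 22 months; chr5:100033577-100039664, minus strand). It measured 57.1 to 69.8 CPM at 2 months (median 60.3), 47.7 to 92.0 CPM at 6 months (median 69.6), 50.3 to 87.2 CPM at 12 months (median 71.0), 70.1 to 107 CPM at 18 months (median 92.6) and 78.0 to 86.3 CPM at 24 months (median 83.7). At 18 and 24 months all 12 libraries lay above the 2-month range, and the 24-month libraries were tightly grouped. Hnrnpl (chr7:28808541-28822266, plus strand), which binds CA repeats, rose by 0.41 ± 0.13 (SE; edgeR adjusted p = 0.0437). It measured 106 to 154 CPM at 2 months (median 116), 103 to 163 CPM at 6 months (median 122), 87.6 to 140.4 CPM at 12 months (median 107), 158 to 219 CPM at 18 months (median 162) and 143 to 159 CPM at 24 months (median 148). Its 18-month libraries lay above all of 2 months, but its 12-month mean was the lowest of the 5 ages, and a straight line described it poorly (test of curvature, edgeR adjusted p = 0.00999). The Hnrnpl call ended in 18 of the 30 fits that left out 1 library (adjusted p 0.0322 to 0.0864), while the Hnrnpdl call held in all 30. In the fit with the share of reads in no gene model, the changes were 0.24 for Hnrnpdl and 0.086 for Hnrnpl, and neither passed. Without the 18-month libraries they were 0.36 and 0.24, and neither passed.

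Of the hnRNP genes that fell, Hnrnpab (chr11:51600100-51606847, minus strand), a CArG-box-binding factor that also binds mRNA, fell by 0.41 ± 0.10 (SE; edgeR adjusted p = 0.00922). It measured 154 to 210.1 CPM at 2 months (median 187), 139 to 189 CPM at 6 months (median 157), 145 to 200.1 CPM at 12 months (median 156), 104 to 142 CPM at 18 months (median 121) and 129 to 164 CPM at 24 months (median 146). Its 18-month libraries lay below all of 2 months, and those of 24 months overlapped both. Hnrnpm (chr17:33646233-33686860, minus strand), which binds GU-rich RNA, fell by 0.37 ± 0.093 (adjusted p = 0.00800 by edgeR). It measured 269 to 382 CPM at 2 months (median 348), 235 to 325 CPM at 6 months (median 277), 246 to 333 CPM at 12 months (median 304), 206 to 306 CPM at 18 months (median 253) and 214 to 283 CPM at 24 months (median 265). Medians were lower from 6 months on, and male 1 of 2 months, at 269 CPM, lay within the range of every later age.

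Hnrnpc (chr14:52073377-52104028, minus strand), which binds uridine tracts and packages nascent RNA, fell by 0.31 ± 0.075 (SE; edgeR adjusted p = 0.00698). It measured 152 to 191 CPM at 2 months (median 185), 156 to 207 CPM at 6 months (median 190.3), 156 to 206 CPM at 12 months (median 185), 132 to 155 CPM at 18 months (median 152) and 143 to 165 CPM at 24 months (median 156). Apart from male 1 of 2 months at 152 CPM, the 2-month libraries lay above all of 18 and 24 months. Hnrnpf (chr6:117900324-117925622, plus strand), which binds G tracts, fell by 0.30 ± 0.093 (SE; edgeR adjusted p = 0.0319). It measured 31.5 to 43.7 CPM at 2 months (median 42.9), 31.1 to 39.6 CPM at 6 months (median 34.4), 36.0 to 44.6 CPM at 12 months (median 40.7), 27.9 to 36.4 CPM at 18 months (median 34.9) and 28.2 to 34.7 CPM at 24 months (median 32.4). The Hnrnpf call ended without male 2, female 1 or female 2 of 2 months and without male 3, female 1 or female 3 of 24 months (adjusted p 0.0142 to 0.0711), while the calls of Hnrnpab, Hnrnpm and Hnrnpc held in all 30 such fits. Given that share as a covariate, the changes were -0.15 for Hnrnpab, -0.30 for Hnrnpm, -0.18 for Hnrnpc and -0.19 for Hnrnpf, all with the same sign and none past the threshold. Without the 18-month libraries only Hnrnpm passed of these 4 (-0.34).

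Hnrnpa3 (0.47 ± 0.17; edgeR adjusted p = 0.0651) and Hnrnpr (0.22 ± 0.079; edgeR adjusted p = 0.0734) came closest to the threshold without passing. The remaining 12 hnRNP genes had fitted changes from -0.12 ± 0.22 for Hnrnpa1 to 0.30 ± 0.12 for Hnrnph1. Hnrnpa2b1, the most abundant hnRNP per kb, measured 599 to 832 CPM at 2 months (median 729), 624 to 780.0 CPM at 6 months (median 667), 631 to 713 CPM at 12 months (median 656), 636 to 898 CPM at 18 months (median 753) and 594 to 757 CPM at 24 months (median 621), with a fitted change of -0.066 ± 0.087 and ranges that overlapped at all ages.

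**Figure D3:**
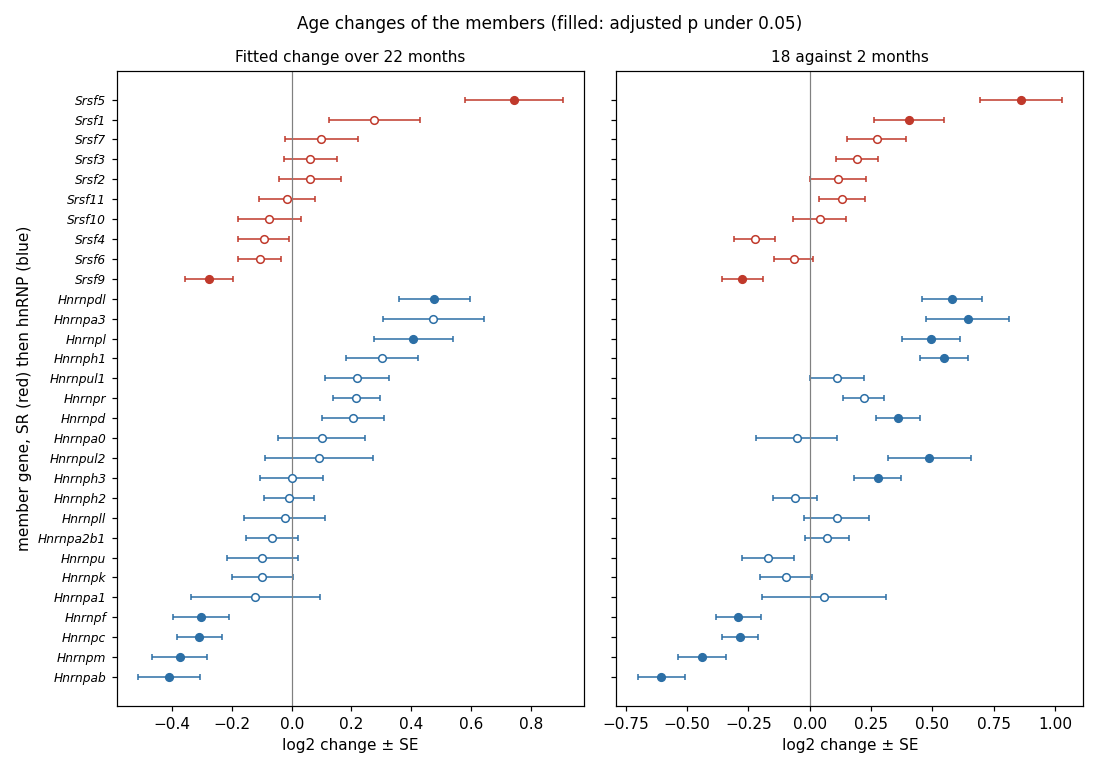
Fitted log2 change over 22 months (left) and at 18 against 2 months (right) with SE for 30 members, filled where the adjusted p was under 0.05, SR genes in red and hnRNP genes in blue, with Srsf12 left out for its low counts. Within each family, changes go in both directions, and 14 members pass at 18 against 2 months and 8 on the slope.

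With each age set against 2 months, whose 6 libraries the contrasts share, the most members passed at 18 months. At 18 months 2 SR genes were higher (Srsf5, Srsf1) and 1 lower (Srsf9), and 7 hnRNP genes were higher (Hnrnpa3, Hnrnpdl, Hnrnph1, Hnrnpl, Hnrnpul2, Hnrnpd, Hnrnph3) and 4 lower (Hnrnpab, Hnrnpm, Hnrnpf, Hnrnpc). That is 9 of 31 members higher and 5 lower, where 10.1% of all genes tested were higher and 8.7% lower. The median change was 0.12 (log2) in SR genes and 0.091 in hnRNP genes, against -0.0026 in all genes. In 14 of 31 members the mean over the 6 libraries was highest at 18 months, as it was in 28.6% of all genes. The immediate early and dissociation-response sum was above every 2-month library in 5 of the 6 libraries of 18 months, and its part in these changes was not tested.

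The largest 18-month increases after Srsf5 (0.86 ± 0.17 (SE; edgeR adjusted p = 0.000615)) were in hnRNP genes. Hnrnpa3 measured 4.77 to 6.38 CPM at 2 months (median 5.32) and 6.40 to 10.9 CPM at 18 months (median 8.69), a change of 0.64 ± 0.17 (SE; edgeR adjusted p = 0.00789). Hnrnph1, a G-tract binder, measured 76.9 to 88.1 CPM at 2 months (median 77.8) and 98.5 to 139 CPM at 18 months (median 116), a change of 0.55 ± 0.097 (SE; edgeR adjusted p = 0.000209). Ranges at these ages did not overlap for Srsf5, Hnrnpa3, Hnrnph1, Hnrnpdl, Hnrnpl or, in the lower direction, Hnrnpab, which is 5 of 31 members higher and 1 lower, against 4.69% and 3.78% of all genes. Hnrnpdl changed by 0.58 ± 0.12 and Hnrnpl by 0.49 ± 0.12. Hnrnpd (AUF1) measured 90.8 to 128 CPM at 2 months (median 101) and 119.8 to 158 CPM at 18 months (median 129.6), a change of 0.36 ± 0.089 (SE; edgeR adjusted p = 0.00522), with ranges that overlapped.

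Srsf1 measured 104 to 144 CPM at 2 months (median 130.0) and 143 to 206 CPM at 18 months (median 169.8), with the ranges overlapping by a small margin, and changed by 0.40 ± 0.14 (SE; edgeR adjusted p = 0.0460). Hnrnph3 changed by 0.28 ± 0.095 and Hnrnpul2 by 0.49 ± 0.17. The decreases were -0.61 ± 0.097 for Hnrnpab, -0.44 ± 0.096 for Hnrnpm, -0.29 ± 0.092 for Hnrnpf, -0.28 ± 0.074 for Hnrnpc and -0.27 ± 0.084 for Srsf9 (log2, SE). Calls of 5 of these genes ended when 1 library was left out, in 13 fits for Srsf1, 8 each for Hnrnph3 and Hnrnpul2, 6 for Hnrnpf and 5 for Srsf9, with adjusted p reaching 0.128 for Srsf1. When the share of reads in no gene model entered the fit, none of the 14 calls remained, against 214 of 16844 genes. The change of Srsf5 was then 0.089 and those of Hnrnpd, Hnrnpa3, Hnrnpul2 and Hnrnpm 0.47, 0.55, 0.55 and -0.38, while Srsf1 turned to -0.35 and Srsf9 to 0.013. Since this share and the age of 18 months largely coincide, their parts in these changes cannot be told apart.

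**Figure D4:**
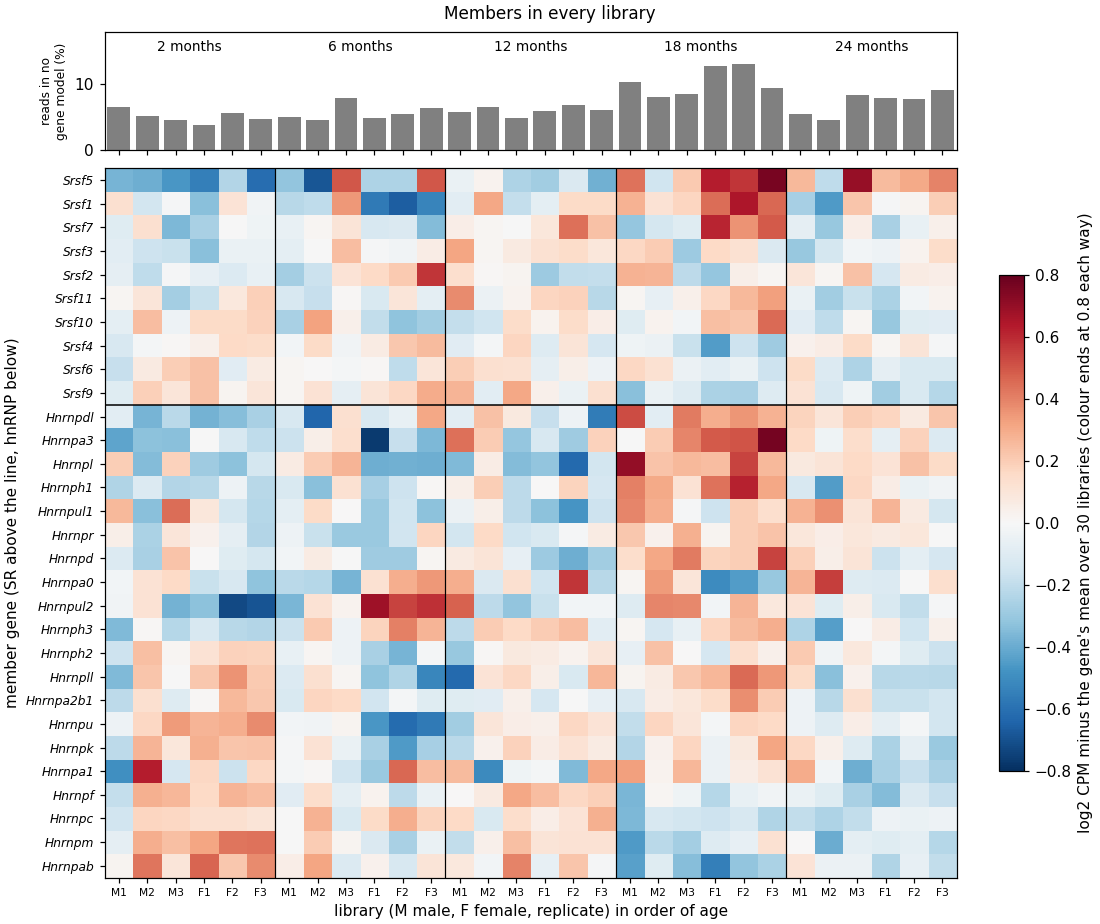
Log2 CPM of 30 members (rows; Srsf12 left out) in the 30 libraries (columns, ordered by age, M male and F female), as the difference from each gene's mean, under bars of the percentage of reads in no gene model. Most 18-month libraries have Srsf5, Hnrnpdl and Hnrnph1 above and Hnrnpab and Hnrnpm below the gene's mean, with shares of 7.99 to 13.1% (male 2 is below it in Srsf5 and Hnrnpdl, and female 3 above it in Hnrnpm), and the 3 female libraries of 6 months stand apart in Hnrnpu, Hnrnpul2 and Srsf1.

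At 6 months no SR gene passed (Srsf5 alone had an unadjusted p under 0.05), while Hnrnph3 and Hnrnpul2 were higher and Hnrnpu and Hnrnpm lower. In all genes, 4.07% were higher and 4.69% lower. Hnrnpu (SAF-A), a nuclear scaffold protein that binds RNA and chromatin, measured 379, 342 and 353 CPM in the female libraries and 515, 514 and 532 in the male, after 508 to 679.8 CPM at 2 months (median 636). Its change was -0.50 ± 0.11 (SE; edgeR adjusted p = 0.00451) and held without any 1 library. Hnrnpul2, its paralogue, moved the other way, with 24.9, 22.6 and 23.3 CPM in the females and 12.0, 16.8 and 15.8 in the males, after 9.41 to 16.8 CPM at 2 months (median 12.2). In both genes the 3 females lay outside the 2-month range, and the males lay within it or at its edge. Erythroid markers summed to 2030, 2731 and 1230 CPM in these females and to 1449, 999.7 and 793 CPM in the males. They summed to 436 to 1039 CPM at 2 months. Choroid plexus markers summed to 3517, 5365 and 1113 CPM in these females and to 897, 395 and 393 CPM in the males. At 2 months they summed to 917 to 4315 CPM. The part of either marker set in these changes was not tested.

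In those 3 female libraries, genes of above-median exon length held 45.8%, 44.2% and 47.6% of counts, against 51.7%, 52.6% and 56.0% in the males of that age. In male 1 of 12 months, with Hnrnpu at 431 CPM and Hnrnpul2 at 21.6 CPM, such genes held 46.5%. With that share as a covariate, Hnrnph3 (0.35, log2) and Hnrnpu (-0.32) still passed at 6 months, whereas Hnrnpul2 (0.37) and Hnrnpm (-0.19) did not. The change of Hnrnpul2 was 0.62 ± 0.17 (SE; edgeR adjusted p = 0.0234) and ended without female 2 or female 3 of 2 months or any 1 female of 6 months (adjusted p 0.00611 to 0.0696). Hnrnph3 changed by 0.33 ± 0.095 (SE; edgeR adjusted p = 0.0283), from 57.2 to 73.5 CPM at 2 months (median 62.6) to 64.8 to 96.6 CPM at 6 months (median 83.5), and its call ended without any 1 female of 2 months or without male 2, female 2 or female 3 of 6 months. Hnrnpm changed by -0.30 ± 0.096 (SE; edgeR adjusted p = 0.0456), and that call ended in 22 of the 30 fits. Ranges at 6 and 2 months overlapped for all 31 members, and did not in 1.47% (higher) and 1.28% (lower) of all genes. With the share of reads in no gene model as a covariate these 4 calls held, and Srsf1 was called lower as well.

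At 12 months no member passed, where 2.94% of all genes did. An unadjusted p under 0.05 was found for 4 members (Srsf3, Hnrnph3, Hnrnpm and Hnrnpul1), and DESeq2 called Srsf3 higher. Srsf3, the smallest SR protein and an export adaptor, measured 111 to 135 CPM at 2 months (median 128) and 142 to 174 CPM at 12 months (median 151), ranges that did not overlap (so for 1 of 31 members higher and 0 lower, against 0.986% and 1.13% of all genes), with a change of 0.27 ± 0.086 (SE; edgeR adjusted p = 0.0823). At 24 months Srsf5 (0.74 ± 0.17 (SE; edgeR adjusted p = 0.00472)) and Hnrnpdl (0.43 ± 0.12 (SE; edgeR adjusted p = 0.0249)) were higher and Hnrnpm, Hnrnpf and Hnrnpab lower. Their decreases were -0.42 ± 0.096 (SE; edgeR adjusted p = 0.00499), -0.35 ± 0.092 (SE; edgeR adjusted p = 0.0135) and -0.36 ± 0.096 (SE; edgeR adjusted p = 0.0177). In all genes, 4.86% were higher and 3.48% lower, beside 2 and 3 of 31 members. Ranges at 24 and 2 months did not overlap for 2 members, both higher (Srsf5 and Hnrnpdl), and for 0 lower, against 3.74% and 2.76% of all genes.

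The 24-month call of Hnrnpdl ended without male 2, female 1 or female 2 of 2 months or female 3 of 24 months (adjusted p 0.00883 to 0.0588), and that of Hnrnpab without male 2, female 1 or female 3 of 2 months (adjusted p 0.00621 to 0.0615). In the fit with the share of reads in no gene model, only Hnrnpm passed of the 5, at -0.40. Between 18 and 24 months 1 member passed: Hnrnph1 fell by 0.43 ± 0.097 (SE; edgeR adjusted p = 0.0223), to 66.5 to 102 CPM at 24 months (median 88.4). In all genes, 0.511% were higher and 0.748% lower in that contrast. The Hnrnph1 call ended without female 1 or female 2 of 18 months and without male 1, male 2 or female 2 of 24 months, and with the share of reads in no gene model the change was -0.15 and did not pass.

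A difference among any of the 5 ages was called for 3 SR genes (Srsf1, Srsf5, Srsf9) and 13 hnRNP genes, against 29.3% of all genes. The 13 were Hnrnpa3, Hnrnpab, Hnrnpc, Hnrnpd, Hnrnpdl, Hnrnpf, Hnrnph1, Hnrnph3, Hnrnpl, Hnrnpm, Hnrnpu, Hnrnpul1 and Hnrnpul2. Departure from a straight line was called for Srsf1 and 7 hnRNP genes (Hnrnpab, Hnrnpd, Hnrnph1, Hnrnph3, Hnrnpl, Hnrnpu and Hnrnpul2), against 17.7% of all genes. These overall tests were not refitted with the share of reads in no gene model. Hnrnpul1 passed the overall test and no contrast with 2 months, and measured 33.5 to 57.8 CPM at 2 months (median 41.7), 33.7 to 47.1 CPM at 6 months (median 39.0), 30.6 to 43.8 CPM at 12 months (median 37.2), 37.8 to 55.5 CPM at 18 months (median 47.5) and 38.3 to 54.5 CPM at 24 months (median 48.3). Hnrnph1, Hnrnpd and Srsf1 were among those highest at 18 months and lower again at 24 months, with means of 87.1 ± 12.0 CPM, 109 ± 10.9 CPM and 129 ± 22.6 CPM (SD, n = 6).

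Set against each other as sums, the mean SR total was higher and the mean hnRNP total lower at each later age than at 2 months. The difference was larger than the SDs of both ages at 12 and 18 months for SR genes and at 6 and 24 months for hnRNP genes, and not at the other ages. The 11 SR genes summed to 1338 ± 54.9 CPM at 2 months (SD, n = 6), 1405 ± 137 at 6, 1462 ± 64.8 at 12, 1591 ± 162 at 18 and 1435 ± 128 at 24 months. The 20 hnRNP genes summed to 3376 ± 254, 2980.1 ± 261, 3139 ± 166, 3313 ± 234 and 3004 ± 156 CPM at the same ages. The ratio of the hnRNP sum to the SR sum was 2.53 ± 0.184 at 2 months and 2.14 ± 0.267, 2.15 ± 0.171, 2.09 ± 0.192 and 2.10 ± 0.162 at the later ages. Its range at 2 months (2.19 to 2.70) overlapped that at each later age, for instance 1.86 to 2.34 at 18 months, with male 1 of 2 months the lowest of its age. No test is given for these sums, since the members were chosen with results of these data known. The share of reads in no gene model varied along with the ratio within some ages. The libraries with the highest and lowest share had ratios of 2.19 (6.61%) and 2.70 (3.82%) at 2 months, the extremes of that age. At 24 months they had 1.88 (9.09%) and 2.32 (4.62%), again the extremes. At 6, 12 and 18 months the lowest ratio was not in the library with the highest share. The part of this share in the sums and the ratio was not tested.

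A few abundant genes held large shares of these sums. Srsf5 made up 14.9 ± 1.20% of the SR sum at 2 months (SD, n = 6), 18.6 ± 4.54% at 6, 16.3 ± 1.42% at 12, 22.7 ± 3.05% at 18 and 23.0 ± 2.66% at 24 months. Hnrnpa2b1 and Hnrnpu together made up 39.7 ± 1.40% of the hnRNP sum at 2 months and 38.3 ± 1.27% at 24 months. With each member given equal weight, as the mean of log2 CPM, the difference between the families moved by -0.0064, -0.044, 0.019 and 0.0047 from 2 months to 6, 12, 18 and 24 months, against -0.25, -0.23, -0.27 and -0.26 for the log2 ratio of sums. Srsf12, the member with the lowest mean CPM, weighs as much as any other member there. Without it the equally weighted difference moved by -0.075, -0.094, -0.043 and -0.058, below 0 at each age.

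**Figure D5:**
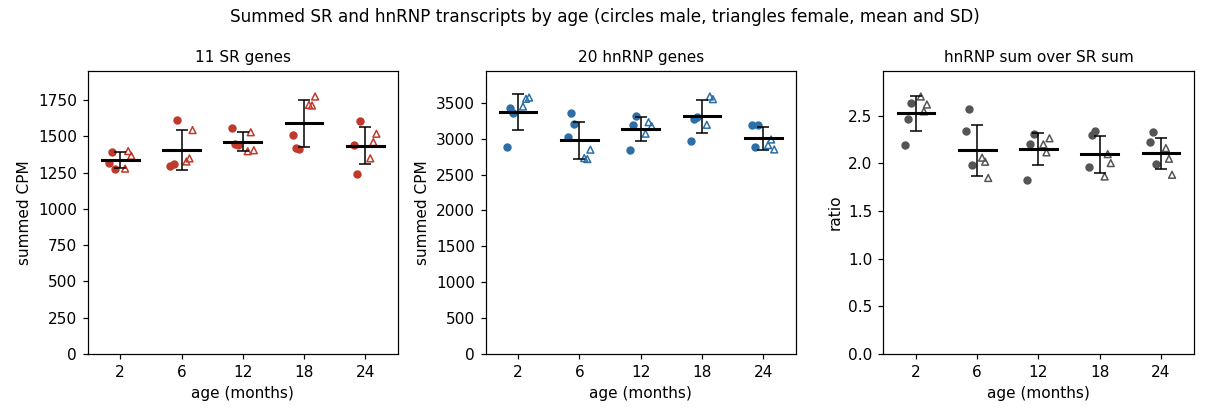
Summed CPM of the SR genes (left) and hnRNP genes (middle) and the ratio of the sums (right) in each library against age, circles male and triangles female, with mean and SD. The ratio averages 2.53 at 2 months and 2.09 to 2.15 later, with overlapping ranges.

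No member differed between the sexes (0 of 31 by edgeR, 5 at an unadjusted p under 0.05, all hnRNP genes), where 0.101% of all genes did. The largest of the 5 was Hnrnpul1, higher in males by 0.23 ± 0.069 (log2, SE; edgeR adjusted p = 0.383). Slopes on age did not differ between the sexes past the threshold for any member (1 at an unadjusted p under 0.05, Srsf1) or for any gene (0%). In females alone Srsf5 (0.85 ± 0.23), Srsf9 (-0.42 ± 0.10), Hnrnpl (0.65 ± 0.17) and Hnrnpab (-0.54 ± 0.14) passed, where 3.71% of all genes did. In males alone none did (5 at an unadjusted p under 0.05; 1.14% of all genes passed), with 0.64 ± 0.22, -0.14 ± 0.13, 0.16 ± 0.18 and -0.28 ± 0.15 for the same genes in that order and the same sign in each. These fits within 1 sex were not repeated with the share of reads in no gene model.

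The kinases that phosphorylate SR proteins, and Tnpo3, the importin that carries phosphorylated SR proteins into the nucleus, showed no slope that passed (0 of 10). Clk1 measured 97.6 to 261 CPM at 2 months (median 189) and 133 to 229 CPM at 24 months (median 178), with a fitted change of -0.013 ± 0.17 over 22 months. The values were 0.23 ± 0.13 for Clk2, -0.25 ± 0.11 for Clk3, 0.27 ± 0.15 for Clk4, 0.14 ± 0.11 for Srpk1, 0.22 ± 0.11 for Srpk2, 0.47 ± 0.17 for Dyrk1a, 0.19 ± 0.10 for Prpf4b and 0.14 ± 0.12 for Tnpo3 (log2, SE). Srpk3, a muscle kinase, stayed between 0 and 3.46 CPM (1.14 ± 0.69). At 18 against 2 months 3 of the 10 were higher, against 10.1% of all genes: Clk2 (0.39 ± 0.12 (SE; edgeR adjusted p = 0.0261)), Srpk2 (0.36 ± 0.097 (SE; edgeR adjusted p = 0.00976)) and Prpf4b (0.31 ± 0.11 (SE; edgeR adjusted p = 0.0377)). Their 18-month ranges were 93.8 to 122 CPM at 18 months (median 107), 45.7 to 55.7 CPM at 18 months (median 50.3) and 94.8 to 120.4 CPM at 18 months (median 100.3), after 71.4 to 97.9 CPM at 2 months (median 80.8), 33.0 to 52.8 CPM at 2 months (median 38.0) and 73.7 to 97.4 CPM at 2 months (median 85.0), and all 3 overlapped.

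Among 27 SR-related proteins, which carry arginine-serine stretches but are not classed with the SR family, 7 rose on the slope and none fell, with a median of 0.20 (log2), against 5.72% and 5.22% of all genes and a median of 0.029. Thrap3, a speckle protein, rose by 0.98 ± 0.17 (SE; edgeR adjusted p = 0.000382), from 39.6 to 63.5 CPM at 2 months (median 52.1) to 89.6 to 118 CPM at 24 months (median 102). Luc7l2, a U1-associated protein, rose by 0.77 ± 0.20, Arglu1 by 0.58 ± 0.15, Srrm1 by 0.49 ± 0.14, Bclaf1, a partner of Thrap3, by 0.45 ± 0.13 and Srrm2, a core of nuclear speckles, by 0.35 ± 0.11. At 18 against 2 months 13 of the 27 were higher and 1, Rnps1 (named after its value was seen), was lower, against 10.1% and 8.7% of all genes. Among 23 hnRNP relatives that carry other names, Pcbp3 (-0.47 ± 0.12) and Nono (-0.27 ± 0.069) fell, while the median slope of the list was 0.082. At 18 against 2 months 7 of the 23 were higher and 2 lower, against 10.1% and 8.7% of all genes. Of 37 other sequence-specific regulators 30 were tested, and 2 rose, Cpeb4 (0.78 ± 0.17) and Tia1 (0.54 ± 0.17), with a median of 0.13. At 18 against 2 months 4 of the 30 were higher and 1 lower.

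Core particles of the spliceosome had slope medians below 0, against 0.029 for all genes tested. On the slope, 5.72% of all genes rose and 5.22% fell. Of 15 Sm and U1 proteins, Snrpn (-1.14 ± 0.17) and Snrpb (-0.38 ± 0.12) fell and Prpf39 (0.57 ± 0.15) rose, with a median of -0.21. Snrpn, a brain-enriched Sm protein from an imprinted locus, measured 17.3 to 26.6 CPM at 2 months (median 20.3) and 7.998 to 13.8 CPM at 24 months (median 9.07). Of 18 U2 proteins, Phf5a (-0.44 ± 0.14) and Puf60 (-0.26 ± 0.072) fell (median -0.19). Of 23 tri-snRNP proteins in the tables, Txnl4a (-0.65 ± 0.11) fell and Prpf8 (0.39 ± 0.13) rose (median -0.11). Of 9 exon junction, cap-binding and export proteins, the cap-binding Ncbp1 (-0.43 ± 0.10) and the export factor Alyref (-0.28 ± 0.092) fell (median -0.24). The exon junction proteins Eif4a3, Magoh, Magohb, Rbm8a and Casc3 did not pass on the slope. Of 10 factors of nonsense-mediated decay, the pathway that degrades the members' premature-stop transcripts, 3 rose, Smg1 (0.85 ± 0.21), Smg6 (0.39 ± 0.10) and Upf2 (0.37 ± 0.12), and Upf3a (-0.48 ± 0.11) fell (median 0.30). At 18 against 2 months, 10.1% of all genes were higher and 8.7% lower. The counts higher and lower were 2 and 3 of the 15 Sm and U1 proteins and 1 and 3 of the 18 U2 proteins. They were 2 and 2 of the 23 tri-snRNP proteins and 4 and 2 of the 10 decay factors. Of the 9 exon junction, cap-binding and export proteins, 0 were higher and 2 lower. The slopes and 18-month changes of all these listed genes were not refitted with the share of reads in no gene model, and its part in them was not tested.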

How the data were processed

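The 30 libraries were grouped by the age and sex in the labels. The authors deposited tables of raw counts per gene, 1 per library. Per the labels' protocols, SMART-Seq v4 cDNA and Nextera XT libraries were made, a chemistry that marks no strand. The submitters' processing notes name STAR 2.5.2b, FastQC 0.11.4, HTSeq and MultiQC and the build GRCm38 (mm10); their settings are not given in the sources used here. The unstranded count column was used. Rows that name no gene (unmapped, multimapping, in no gene model, ambiguous) stayed out of library sizes and tests; reads in no gene model were 3.82 to 13.1% of the total per library and include reads in introns. Of 48795 gene identifiers, 48349 matched GENCODE M21.

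Counts were fitted with edgeR 4.0.16 (R 4.3.3; TMM scaling, filterByExpr with a minimum count of 10, robust quasi-likelihood F test, Benjamini-Hochberg adjustment over all 16844 genes tested, threshold 0.05), after a check on simulated data. Sex was a covariate, with age in months as a number for the slope (log2 change over 22 months) and as a factor for the contrasts, which share the 2-month libraries. CPM values use TMM-scaled library sizes, and values per kb use merged exon length. Every member is named. Those that passed any test and the most abundant member of each family are described by library ranges, and up to 6 genes that passed are named per surrounding list. The members and lists were chosen with earlier results of these data known. Alternatives were other scaling, DESeq2 1.42.0, no filter, 2 technical covariates, leaving out each library and leaving out an age. Added after seeing the data were leaving Srsf12 out of the equally weighted family difference and leaving out 3 libraries. These 3 stood apart by markers of other cells (male 1 of 2 and of 12 months, male 2 of 18 months). Some libraries that were kept also held the highest sum of a marker list. Among them were male 2 of 24 months for pericytes (1214 CPM) and female 2 of 6 months for erythroid cells (2731 CPM). Protein sequences were not used here; codons of GENCODE coding sequences were counted instead. Promoters are from RefSeq (GRCm38.p6). One result on a listed gene that is not a member is not reported here.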

Additional observations from a re-analysis of the deposited data

Results flagged for a closer look

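In 8 of 170 groups of 6 libraries (31 members, the 2 family sums and their ratio at 5 ages), 1 library lay far from the other 5, where chance alone gives about 5% of groups. Male 1 of 2 months was low in Hnrnpc at 152 CPM (others 182 to 191), in Hnrnpf at 31.5 CPM (others 40.3 to 43.7) and in the hnRNP sum at 2884 CPM (others 3361 to 3575). That library also held the highest summed astrocyte (1297 CPM) and microglial (1328 CPM) markers of the 30, and their part in these values was not tested. Male 1 of 12 months was low in Hnrnph2 at 66.9 CPM (others 83.2 to 88.1) and in Hnrnpu at 431 CPM (others 539 to 586), and high in Hnrnpul2 at 21.6 CPM (others 12.5 to 15.3). It held the highest summed oligodendrocyte (1956 CPM) and choroid plexus (6981 CPM) markers. Genes of above-median exon length held 46.5% of its counts, against 51.2 to 56.2% in the other libraries of that age. The part of the markers and of this share was not tested. Male 3 of 6 months was high in Srsf1 at 168 CPM (others 83.5 to 114), and female 3 of 12 months in Srsf12 at 3.18 CPM (others 0 to 1.07).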

How the results depend on the processing

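Scaling by size factors (RLE) changed no call of a member. Calls changed with the share of reads in no gene model as a covariate, given here with the genes called of 16844. On the slope they fell to 0 SR higher, 0 SR lower, 0 hnRNP higher and 0 hnRNP lower (402, against 1843). At 18 months they fell to 0, 0, 0 and 0 (214). At 24 months they fell to 0 SR higher, 0 hnRNP higher and 1 hnRNP lower (959). For 24 against 18 months they fell to 0 (5), and at 6 months 1 SR gene was lower (1819). Slopes then turned to -0.17 for Srsf1, -0.051 for Srsf3, 0.060 for Srsf4, -0.11 for Srsf7, -0.083 for Hnrnph1 and 0.0076 for Hnrnph2, and 18-month changes to -0.35 for Srsf1 and 0.013 for Srsf9. The main fit called 1843 of 16844 genes on the slope, 1476 at 6 months and 495 at 12 months. At 18 and 24 months it called 3163 and 1406, and between them 212. Given the share of counts in longer genes, 0 SR genes were lower and 1 hnRNP gene higher on the slope (1716 genes called). At 6 months 1 hnRNP gene was higher and 1 lower (860), and at 18 months 1 SR gene was higher and 0 lower (3020). At 24 months 5 hnRNP genes were lower (2205), and between 18 and 24 months 0 were (86). Slopes with this covariate turned to -0.0046 for Srsf7 and 0.013 for Hnrnph3. With no filter (30957 genes), 1 hnRNP gene was higher on the slope (2244 genes called). At 6 months 1 hnRNP gene was higher and 1 lower (967). At 18 months 1 SR gene was higher and 0 lower (2445), and between 18 and 24 months 0 hnRNP genes were lower (99). DESeq2 called 1 SR gene higher at 12 months (941 of 18883 genes called) and 2 SR genes lower at 18 months (3927 of 18883). It called 5 hnRNP genes lower at 24 months (2034 of 17132). Between 18 and 24 months it called 1 SR gene higher and 2 hnRNP genes lower (729 of 11748). Without the 3 libraries that stood apart, 6 hnRNP genes were lower at 6 months (1999 of 17020 genes called). At 18 months 2 SR genes were lower (3334). At 24 months 7 hnRNP genes were lower (1643), and between 18 and 24 months 3 were (604). Without the 2-month libraries the slope counts were 0 SR higher, 0 hnRNP higher and 1 hnRNP lower (940 of 16633 genes called). Slopes there turned to -0.077 for Srsf2, -0.16 for Srsf3, -0.039 for Srsf7 and 0.11 for Hnrnph2. They also turned to 0.046 for Hnrnpk, 0.11 for Hnrnpll, 0.21 for Hnrnpu and -0.34 for Hnrnpul2. Without the 18-month libraries the slope counts were 0 SR lower, 0 hnRNP higher and 1 hnRNP lower (726 of 16310 genes called). Equal weights moved the log2 ratio of the families to -0.0064, -0.044, 0.019 and 0.0047 at 6, 12, 18 and 24 against 2 months, and, added after seeing the data, equal weights without Srsf12 to -0.075, -0.094, -0.043 and -0.058. The cause of these changes was not tested.

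Leaving out each library gave, on the slope, 0 to 1 SR lower, 1 to 4 hnRNP higher and 3 to 4 hnRNP lower. At 6 months it gave 0 to 1 SR higher, 0 to 1 SR lower, 0 to 2 hnRNP higher and 1 to 4 lower. At 12 months it gave 0 to 1 hnRNP higher. At 18 months it gave 1 to 3 SR higher, 0 to 2 SR lower, 5 to 8 hnRNP higher and 3 to 4 lower. At 24 months it gave 0 to 1 hnRNP higher and 2 to 5 lower, and between 18 and 24 months 0 to 2 hnRNP lower. Slopes near 0 changed sign for Srsf11 (-0.055 to 0.027), Hnrnph2 (-0.040 to 0.019), Hnrnph3 (-0.056 to 0.053) and Hnrnpll (-0.069 to 0.023). No paired analysis was possible because the replicate numbers were given in accession order within age and sex and tie no library to another. Mean CPM was lowest for Srsf12 and Hnrnpa1, and the part of reads set apart as multimapping in the level of Hnrnpa1 was not tested.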
